A study of Mus musculus with 6 samples.

Results

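The TNF and death receptor family was followed in mouse eosinophils exposed to vesicles from activated TH2 cells. Its 10 genes were chosen by name, as 4 ligands and 6 receptors of the TNF superfamily, and all 10 were among the 16254 genes of the count table. The ligands were Tnf, Tnfsf14 (LIGHT), Tnfsf10 (TRAIL) and Tnfsf13b (BAFF), and the receptors were Tnfrsf1a, Tnfrsf1b, Ltbr, Fas, Tnfrsf10b and Tnfrsf9. Eosinophils were grown from the bone marrow of C57BL/6 mice aged 6 to 12 weeks and used on day 12 of culture. For 24 h, 3 cultures received extracellular vesicles (EVs, membrane particles that cells release) at 5e9 EVs/ml, isolated from medium conditioned by activated TH2 cells. The other 3 cultures, called sham here, received medium that no cell had conditioned, carried through the same isolation. The labels call the cultures biological replicates, and all 6 shared the strain, the differentiation and the time. Poly(A) RNA was sequenced, and the libraries held 23697620 to 37874426 estimated counts. Values below are normalized counts, the rounded estimated count divided by a library's size relative to the mean library, with n = 3 per group. The question was whether EVs changed the RNA of the ligands, of the receptors, or of both.

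TNF superfamily ligands are mostly trimeric, are made as membrane proteins and are often shed. Their receptors fall into groups. Those with a cytoplasmic death domain (TNFR1, Fas, the TRAIL receptor) can assemble caspase-activating complexes, and those without one (TNFR2, LTBR, 4-1BB) bind TRAF adaptors and lead to NF-kB and MAP kinase activity. TNFR1 does both, and the outcome depends on ubiquitin-modifying proteins at the receptor. In eosinophils, TNF is known as both a product and a stimulus, and Fas ligation is a known trigger of their death.

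Of the 9 members that passed the filter on low counts, 2 ligands were called higher and 3 receptors lower after EVs. Tnf was 1.91-fold higher, while Tnfrsf1a, Tnfrsf1b and Ltbr were 2.15-fold, 2.70-fold and 2.84-fold lower. Tnfsf14, the other ligand called higher, changed 1.19-fold and passed the threshold narrowly. A gene was called where the quasi-likelihood test of edgeR, Benjamini-Hochberg adjusted over 13498 genes, gave a value under 0.01. At that threshold 12.1% of all genes tested were higher and 11.6% lower, so that 5 of 9 members called stands beside 23.7% of all genes. The median log2 fold change was 0.18 over the 9 members and -0.01 over all genes tested. Groups did not overlap for 7 of the 9, against 49.6% of all genes tested. Of these, 3 lay higher and 4 lower in the EV cultures, against 24.8% and 24.7% of all genes. All 3 receptors called lower also fell by more than 1 on the log2 scale, and 6.35% of all genes tested were both called lower and changed by that much.

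**Figure D1:**
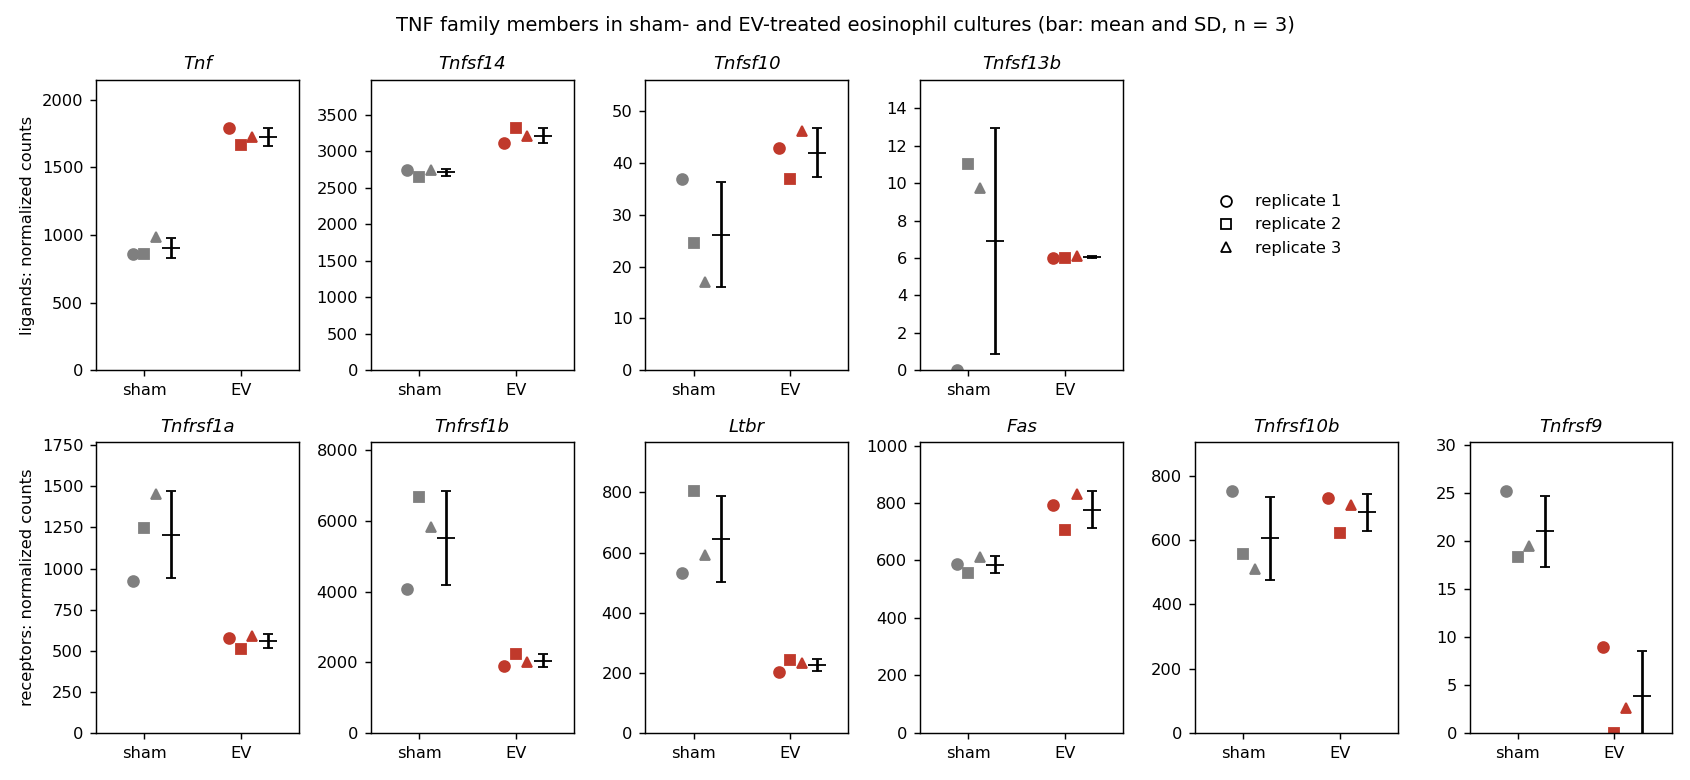
Normalized counts (y axis, linear from 0, own scale in each panel) of the 10 family members in the sham-treated (grey) and EV-treated (red) cultures, with circle, square and triangle for replicates 1, 2 and 3 and a bar for the mean and SD (n = 3, whiskers drawn down to 0 at most). All 3 EV values lie above all 3 sham values for Tnf, Tnfsf14 and Fas and below them for Tnfrsf1a, Tnfrsf1b, Ltbr and Tnfrsf9.

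To show the sequence next to the starts of Tnf and of both receptors with the largest falls among those called, the 250 bases before the annotated start were read from RefSeq (GRCm38.p6), 5′ to 3′ on the gene's strand. Capitals mark matches, on either strand, to the motifs listed after the sequences.
Tnf, chr17:35202008-35202257, minus strand: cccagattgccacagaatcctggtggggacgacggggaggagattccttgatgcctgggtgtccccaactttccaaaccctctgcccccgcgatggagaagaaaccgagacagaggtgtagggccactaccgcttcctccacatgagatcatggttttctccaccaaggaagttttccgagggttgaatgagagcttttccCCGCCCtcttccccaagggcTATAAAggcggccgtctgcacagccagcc
Tnfrsf1b, chr4:145246871-145247120, minus strand: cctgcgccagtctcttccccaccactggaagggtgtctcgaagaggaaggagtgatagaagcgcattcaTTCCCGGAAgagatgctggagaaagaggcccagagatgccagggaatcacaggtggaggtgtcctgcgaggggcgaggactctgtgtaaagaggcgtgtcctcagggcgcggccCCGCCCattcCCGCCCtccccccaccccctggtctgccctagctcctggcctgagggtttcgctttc
Ltbr, chr6:125313886-125314135, minus strand: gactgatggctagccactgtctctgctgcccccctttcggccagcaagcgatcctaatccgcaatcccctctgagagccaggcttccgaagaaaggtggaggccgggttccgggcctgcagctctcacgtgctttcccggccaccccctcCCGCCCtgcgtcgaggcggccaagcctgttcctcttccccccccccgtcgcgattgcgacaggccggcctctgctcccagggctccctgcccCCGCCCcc
The motifs searched were the GAS element bound by STAT factors (TTCNNNGAA), the NF-kB consensus, AP-1 (TGANTCA), CRE (TGACGTCA), the GC box (GGGCGG) and the TATA box (TATAAA). The Tnf window held a TATA box 29 to 24 bases and a GC box 49 to 44 bases before the start. The Tnfrsf1b window held TTCCCGGAA, a GAS match, 181 to 173 bases before the start and 2 GC boxes, and the Ltbr window held 2 GC boxes. Windows of this length held a GAS match in 7.02%, an NF-kB consensus in 3.9%, an AP-1 match in 6.75%, a CRE in 1.55%, a GC box in 32.7% and a TATA box in 12.4% of 32851 promoters. A promoter entry was found for 9 of the 10 members. Among those not printed, the Fas window held GAS, AP-1 and GC box matches, the Tnfrsf1a window a GAS match, and the Tnfsf14 window an AP-1 match. Tnfrsf9 and Tnfsf13b each had 2 annotated starts. Across both starts, Tnfrsf9 held a GAS match, 2 overlapping matches to the NF-kB consensus, an AP-1 match and a GC box, and Tnfsf13b held an AP-1 match. Tnfsf10 held no match. Some of the windows not printed lay partly in annotated exons of their own gene. This held for 36 bases of the Tnfrsf1a window and 49 of the Tnfsf10 window. It also held for 81 bases at the later Tnfrsf9 start and 166 at the later Tnfsf13b start, whose window held the AP-1 match. A match is a run of letters and not evidence of binding.

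Tnf encodes the founding ligand of the family, made by many leukocytes and shed from the surface by ADAM17. The gene lies on chromosome 17 (GRCm38 chr17:35199381-35202007, minus strand) between Ltb, 3060 bases away, and Lta, 1157 bases away. In the sham cultures Tnf measured 859, 862 and 988 normalized counts, and in the EV cultures 1789, 1663 and 1721. The lowest EV culture was well above the highest sham culture, and both groups were tight. The mean rose from 903 ± 73.8 to 1724 ± 63.3 (SD, n = 3; log2 fold change 0.93, SE 0.0836, 95% interval 0.75 to 1.12, edgeR adjusted p = 1.63e-05). Neither neighbour was called. Ltb, the membrane partner in lymphotoxin, measured 1032 ± 122 and 1327 ± 146 (SD, n = 3; log2 fold change 0.36, edgeR adjusted p = 0.0288). Its EV values also all lay above its sham values, without passing the threshold. Lta, the soluble lymphotoxin, had at most 4 counts in any library and was not tested.

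Tnfrsf1a encodes TNFR1, the death domain receptor for both soluble and membrane TNF (chr6:125349362-125362484, plus strand). It measured 923, 1245 and 1451 normalized counts in the sham cultures and 577, 513 and 592 in the EV cultures. The sham values spread widely, with replicate 1 lowest, but all of them exceeded the EV values. The mean fell by 1.10 on the log2 scale, from 1206 ± 266 to 561 ± 41.8 (SD, n = 3; SE 0.153, edgeR adjusted p = 0.000324).

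Tnfrsf1b encodes TNFR2, which lacks a death domain and responds best to membrane TNF (chr4:145213463-145246870, minus strand). It was the most abundant of the 6 receptors per kb of transcript in the sham cultures. It measured 4060, 6665 and 5829 normalized counts there, against 1883, 2245 and 2007 in the EV cultures. Replicate 1 was again the lowest sham culture, and the groups did not overlap. The mean fell by 1.43 on the log2 scale, from 5518 ± 1330 to 2045 ± 184 (SD, n = 3; SE 0.156, edgeR adjusted p = 6.3e-05).

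Ltbr encodes the lymphotoxin beta receptor, through which LIGHT and membrane lymphotoxin activate the non-canonical NF-kB pathway (chr6:125306571-125313885, minus strand). It is a neighbour of Tnfrsf1a, 35476 bases away. Ltbr measured 533, 805 and 593 normalized counts in the sham cultures and 202, 243 and 232 in the EV cultures. No EV culture reached the lowest sham value. The mean fell by 1.51 on the log2 scale, from 644 ± 143 to 226 ± 21.6 (SD, n = 3; SE 0.175, edgeR adjusted p = 9.62e-05).

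Tnfsf14, also on chromosome 17 (chr17:57189492-57194177, minus strand), encodes LIGHT, a ligand of both LTBR and HVEM. It measured 2743, 2651 and 2741 normalized counts in the sham cultures and 3116, 3318 and 3206 in the EV cultures. The spread was small in both groups and they did not overlap, although the step between them was modest. The mean was 2712 ± 52.6 and 3213 ± 101 (SD, n = 3; log2 fold change 0.24, SE 0.0602, edgeR adjusted p = 0.00993). The call did not survive the loss of any 1 library: the adjusted p was 0.0116, 0.0265 and 0.0219 without sham replicates 1, 2 and 3, and 0.0257, 0.056 and 0.0395 without EV replicates 1, 2 and 3. Scaling by total counts gave 0.10 with an adjusted p of 0.233, whereas DESeq2 gave 0.25 with 0.00199.

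Fas encodes the death receptor for Fas ligand (chr19:34290666-34327772, plus strand). It measured 587, 556 and 614 normalized counts in the sham cultures and 794, 705 and 832 in the EV cultures. All EV values were higher than all sham values, yet the change did not pass the threshold. The log2 fold change was 0.41 (SE 0.105, 95% interval 0.17 to 0.64, edgeR adjusted p = 0.0127). DESeq2's Wald test gave 0.41 with an adjusted p of 0.00594, and scaling by total counts gave 0.26 with 0.0762. The gene of its ligand, Fasl, was not found by that name in the count table.

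Tnfrsf10b encodes the mouse TRAIL death receptor and Tnfsf10 encodes TRAIL. Tnfrsf10b measured 752, 555 and 509 normalized counts in the sham cultures and 730, 621 and 708 in the EV cultures, and these ranges overlapped. Its log2 fold change was 0.18 with a 95% interval of -0.16 to 0.52 (edgeR adjusted p = 0.407). Without sham replicate 1, the highest sham culture, it was 0.37 (adjusted p = 0.032), without sham replicates 2 and 3 it was 0.11 and 0.07, and scaling by total counts gave 0.03. Of its transcript sequence, 10.8% of 31-base words also occur in other genes, so its counts carry some uncertainty of assignment. Tnfsf10 was scarce, at 36.9, 24.5 and 17.0 normalized counts in the sham cultures and 43.0, 36.9 and 46.1 in the EV cultures. The highest sham value equalled the lowest EV value to 3 digits, and the log2 fold change of 0.67 had a 95% interval of -0.45 to 1.79 (edgeR adjusted p = 0.339). That interval holds both no change and a 2-fold difference, and the value was 1.02 without sham replicate 1 and 0.44 without sham replicate 3.

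Tnfrsf9 encodes 4-1BB, a costimulatory receptor of activated lymphocytes, and Tnfsf13b encodes BAFF, a B cell survival factor made by myeloid cells. Tnfrsf9 had 28, 15 and 16 counts in the sham libraries and 9, 0 and 3 in the EV libraries. These groups did not overlap, but with so few counts the log2 fold change of -2.45 had a 95% interval of -4.69 to -0.20 (edgeR adjusted p = 0.0865). Without EV replicate 1 it was -3.90 (adjusted p = 0.0379). Tnfsf13b had 0, 9 and 8 counts in the sham libraries and 6, 7 and 7 in the EV libraries, and it did not pass the filter. Neither gene could be placed as changed or unchanged at this depth.

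Because ligand and receptor were read in the same library, their ratio does not depend on how libraries were scaled. The ratio of Tnf to Tnfrsf1a counts was 0.931, 0.692 and 0.681 in the sham libraries and 3.10, 3.24 and 2.91 in the EV libraries. All EV ratios were above all sham ratios, and the mean log2 ratio differed by 2.02, or 4.05-fold. Tnf over Tnfrsf1b went from 0.211, 0.129 and 0.169 to 0.950, 0.741 and 0.857, a 5.07-fold difference. Tnfsf14 over Ltbr went from 5.14, 3.29 and 4.62 to 15.4, 13.6 and 13.8, a 3.34-fold difference. Groups did not overlap for any of these 3 pairs. This follows from the normalized counts above, where each ligand rose and each receptor fell without overlap. These ratios thus restate those changes. Between receptors, Fas over Tnfrsf1a was 0.637, 0.447 and 0.423 in the sham libraries and 1.38, 1.37 and 1.41 in the EV libraries, 2.81-fold higher. Tnfsf10 over Tnfrsf10b was 0.0334 to 0.0488 in the sham libraries and 0.0581 to 0.0657 in the EV libraries. For each of these 5 pairs the two-sided exact permutation test gave p = 0.1, the smallest that 3 against 3 allows, and 0.12 after Benjamini-Hochberg adjustment over 6 pairs, so the design could not reach 0.05. The ratio of Tnfrsf1b to Tnfrsf1a, at 4.40, 5.35 and 4.02 against 3.26, 4.37 and 3.39, overlapped between groups (exact permutation p = 0.2). Both TNF receptors fell, and no difference between their falls was resolved.

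**Figure D2:**
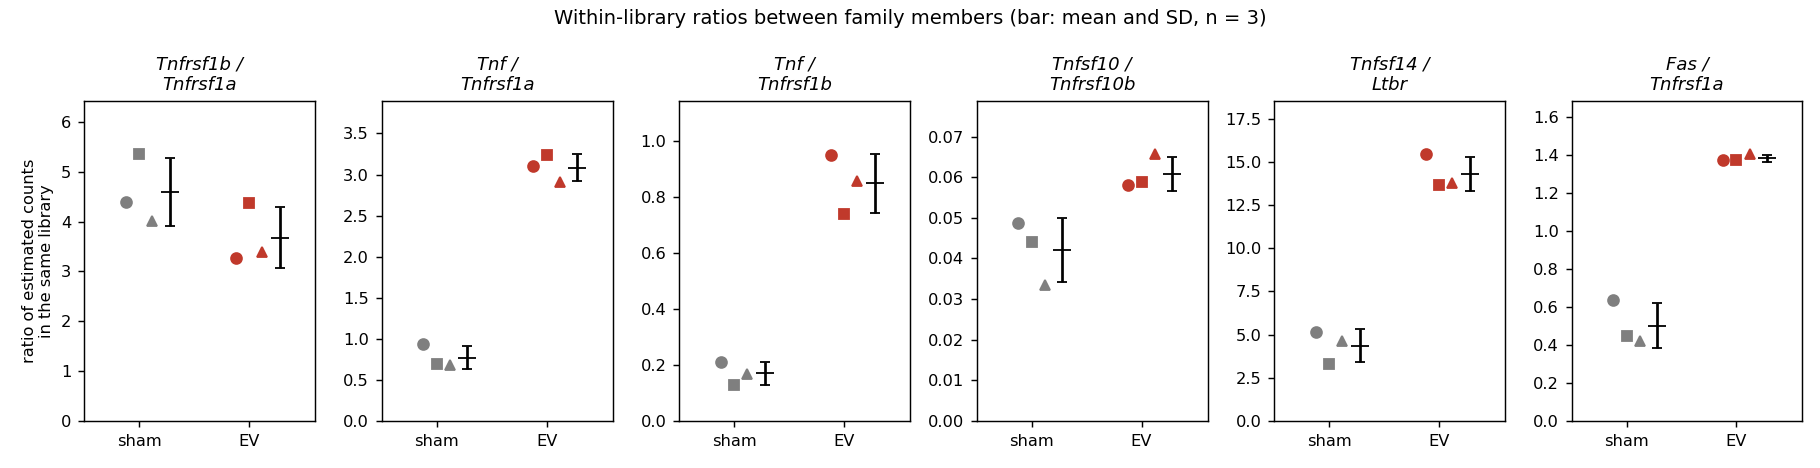
Ratio of estimated counts of 2 family members within a library (y axis, linear from 0, own scale in each panel) for 6 pairs in sham-treated (grey) and EV-treated (red) cultures, with circle, square and triangle for replicates 1, 2 and 3 and a bar for mean and SD (n = 3). Tnf over Tnfrsf1a stays at 0.931 or less in all sham libraries and reaches 2.91 or more in all EV libraries, while the groups overlap for Tnfrsf1b over Tnfrsf1a. Counts are not divided by transcript length, so a ratio of 1 does not mean equal levels.

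Levels between genes were compared as normalized counts per kb of the longest coding transcript. In the sham cultures the members ran from Tnfsf14 (1468 per kb) and Tnfrsf1b (1445 per kb) through Tnfrsf1a (559), Tnf (551), Fas (396), Ltbr (306) and Tnfrsf10b (190) to Tnfrsf9 (9.94), Tnfsf10 (5.24) and Tnfsf13b (1.45). Ranges over the 3 cultures overlapped between Tnfsf14 and Tnfrsf1b, between Tnfrsf1a and Tnf, and between Fas and Ltbr. In the EV cultures Tnf (1052 per kb) moved up to follow Tnfsf14 (1740 per kb), ahead of Tnfrsf1b (536), Fas (525), Tnfrsf1a (260), Tnfrsf10b (216) and Ltbr (107). Of those EV neighbours, Tnfrsf1b and Fas overlapped in range and the others did not. Fas thus stood below both TNF receptors in the sham cultures and above Tnfrsf1a in the EV cultures.

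In bulk RNA, fewer cells of one type and less RNA per cell cannot be told apart. The paper reports better survival and less apoptosis of eosinophils given such EVs than of untreated eosinophils. The sham and EV cultures may therefore have differed in viability when RNA was taken. Viability of the sequenced cultures is not given in the sources used here. The part of cell death in the fold changes of this report was not tested. Of the eosinophil markers 10 were tested, with 7 higher and 0 lower in edgeR, DESeq2 and limma, and none lower even at an unadjusted p under 0.05. Summed over the list, which Prg2, Epx and Ear1 led, they came to 927685 to 1169542 normalized counts in the sham cultures and 1325046 to 1482387 in the EV cultures. Of the macrophage and monocyte markers 9 of 13 tested were lower and 2, Adgre1 and Ly6c2, higher. The counts for both lists stand beside 12.1% higher and 11.6% lower of all genes tested. The summed level of the macrophage and monocyte list was 57277 to 73333 in the sham and 68464 to 74874 in the EV cultures. Adgre1, Ly6c2 and Csf1r led that sum. Mean Adgre1 went from 21326 to 32764 and mean Ly6c2 from 10910 to 27641, so the sum does not give the level of the other markers. The 9 that fell, a subset set apart after their values were seen, included Csf1r, Cd68, C1qa, C1qb, C1qc, Mertk, Cd14 and Marco, with log2 fold changes of -3.38 to -1.31. Their sum was 24040, 40705 and 37698 in the sham cultures and 7520, 10146 and 10291 in the EV cultures. It was 3.66-fold lower, a fall fixed by how the genes were picked. The other markers tested went the other way, with log2 fold changes of 0.62 (Adgre1), 1.34 (Ly6c2), 0.63 (Ccr2, not called) and 0.34 (Mrc1, not called). Sham replicate 1, the lowest sham culture for the sum of the 9, was also the lowest for Tnfrsf1a, Tnfrsf1b and Ltbr. Without it their log2 fold changes were -1.26, -1.61 and -1.62. Macrophages and monocytes are known to carry all 3 of these receptors, and the part of such cells in the lower receptor counts was not tested. None of the 9 macrophage genes was at 0 in any library.

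**Figure D3:**
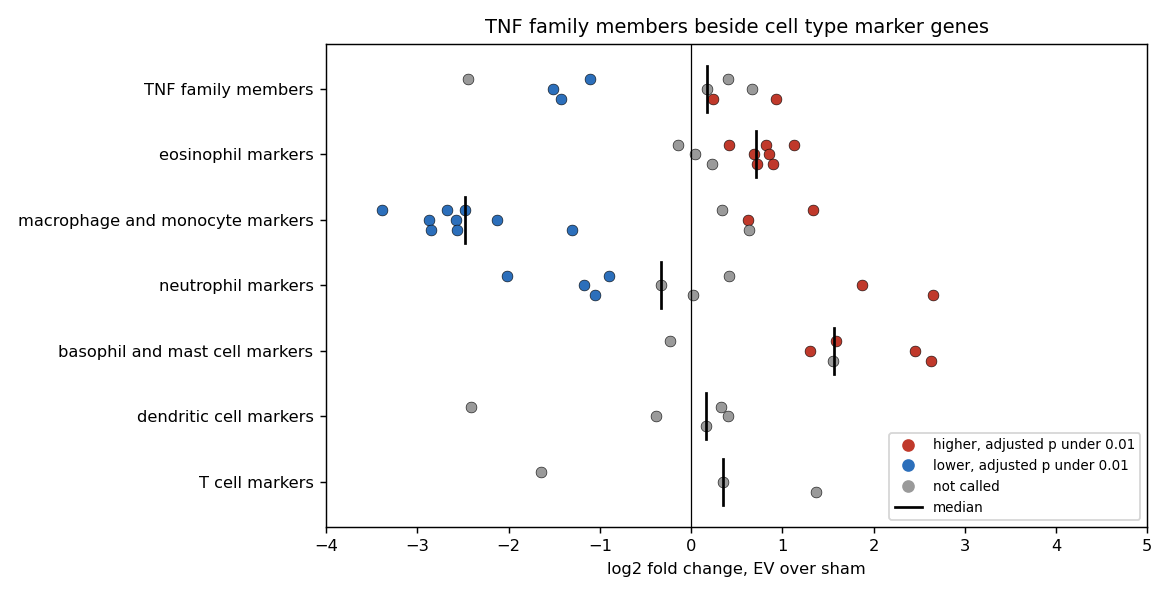
Log2 fold change, EV over sham (x axis), of the tested family members and of the tested genes in 6 cell type marker lists (rows), with red for higher and blue for lower at an adjusted p under 0.01, grey for not called, and a black line at the row's median. The macrophage and monocyte row has 9 blue points and a median of -2.48, the basophil and mast cell row 4 red points, and the T cell row no called gene.

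Markers of 4 other cell types were also read, beside 12.1% higher and 11.6% lower of all genes tested. Of the T cell markers 3 were tested and 0 called in edgeR, DESeq2 and limma, with 1 higher at an unadjusted p under 0.05, and Cd2, Cd5 and Cd6 had at most 3 counts in any library. The summed T cell level was 80.2 to 199.8 normalized counts in the sham cultures and 68.9 to 145.7 in the EV cultures. Of the basophil and mast cell markers 4 of 6 were higher in edgeR and 5 in DESeq2, and their sum was 2266 to 3332 in the sham and 6491 to 8196 in the EV cultures. The mast cell tryptase Tpsb2 had at most 3 counts. Of the neutrophil markers 2 of 9 were higher and 4 lower, with sums of 17920 to 20577 and 18854 to 22416. Of the dendritic cell markers 5 were tested and 0 called in edgeR, DESeq2 and limma, with 1 lower at an unadjusted p under 0.05 and sums of 4957 to 5601 and 5208 to 6377. Tnf can be made by mast cells and basophils, and their part in its rise was not tested.

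Other TNF receptor superfamily genes were called in both directions. Of 22 listed, 18 were in the table and 16 were tested, of which 6 were higher and 2 lower, with a median log2 fold change of 0.45. These shares, 37.5% and 12.5%, stand beside 12.1% and 11.6% of all genes tested. Scaling by total counts gave 4 higher and 3 lower, and without EV replicate 1, 2 or 3 there were 3 higher and 1, 2 or 1 lower. Relt, an orphan receptor of leukocytes, rose most, from 914 ± 81.9 to 3693 ± 155 normalized counts (SD, n = 3; log2 fold change 2.01, edgeR adjusted p = 1.01e-07), and its rank per kb among 37 superfamily genes went from 10 to 3. Tnfrsf18 (GITR), a costimulatory receptor, rose from 325 ± 105 to 1093 ± 81.9 (SD, n = 3; 1.75, edgeR adjusted p = 8.52e-05). Tnfrsf13b (TACI), a receptor of BAFF and APRIL, rose from 583 ± 67.9 to 1222 ± 83.0 (SD, n = 3; 1.07, edgeR adjusted p = 3.56e-05). Groups were well apart for all 3. In the opposite direction, Tnfrsf11a (RANK), known for driving osteoclast formation from monocyte precursors, measured 839, 1474 and 1471 normalized counts in the sham and 58.9, 121.7 and 129.7 in the EV cultures. It fell by 3.59 on the log2 scale, or 12.1-fold (edgeR adjusted p = 1.06e-05), with replicate 1 lowest in each group. Replicate 1 was also lowest in each group for the sum of the 9 macrophage genes, a subset picked for their fall. The part of macrophages and monocytes in the Tnfrsf11a counts was not tested.

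The other receptor calls were less firm. Cd40, a costimulatory receptor of antigen-presenting cells, had a log2 fold change of 0.90 (edgeR adjusted p = 0.00326). Its adjusted p was 0.0125 without sham replicate 3 and 0.0113, 0.0191 and 0.0143 without EV replicates 1, 2 and 3. Tnfrsf12a, the receptor for TWEAK, fell by 1.38 on the log2 scale (edgeR adjusted p = 0.00302), with 0.0144 and 0.0198 without EV replicates 1 and 3. Tnfrsf26 and Tnfrsf22, decoy-type receptors encoded side by side on chromosome 7, had log2 fold changes of 0.47 and 0.43 (edgeR adjusted p = 0.00434 and 0.00455). Of the 31-base words of Tnfrsf22, 38.3% recur elsewhere, mostly in Tnfrsf23, so its counts are uncertain. Without sham replicate 2 and EV replicates 1, 2 and 3 the adjusted p was 0.0129, 0.016, 0.0198 and 0.0255 for Tnfrsf26 and 0.0114, 0.0212, 0.0101 and 0.031 for Tnfrsf22, and both missed the threshold when scaled by total counts (0.0297 and 0.0294). The HVEM gene Tnfrsf14, whose product is the other receptor for LIGHT, stayed at 1734 and 1783 normalized counts per kb (log2 fold change 0.04, edgeR adjusted p = 0.701).

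**Figure D4:**
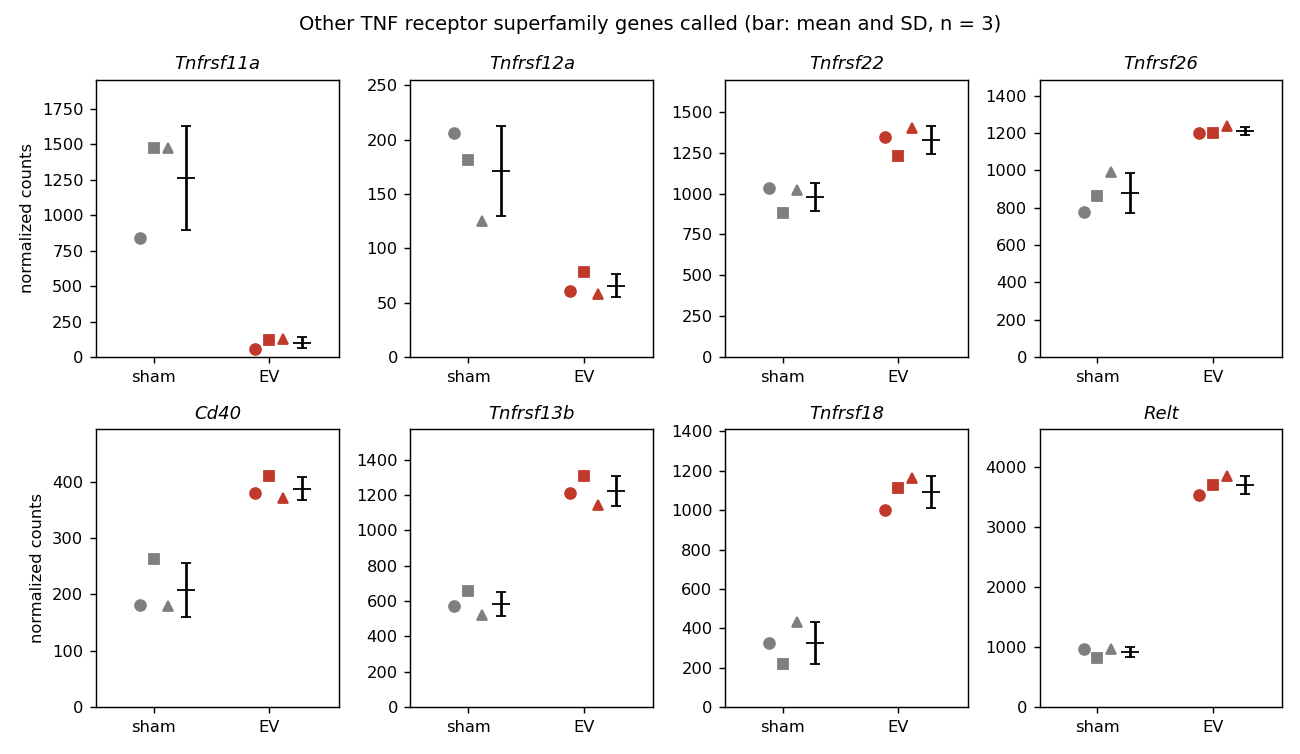
Normalized counts (y axis, linear from 0, own scale in each panel) of the 8 other receptor genes called at an adjusted p under 0.01, in sham-treated (grey) and EV-treated (red) cultures, with circle, square and triangle for replicates 1, 2 and 3 and a bar for mean and SD (n = 3). Tnfrsf11a drops from 839 or more to 129.7 or less, and Relt rises from 962 or less to 3535 or more.

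Among 14 other ligands listed, 9 were in the table, 5 were tested, 0 were higher and 2 lower in edgeR, DESeq2 and limma, with 1 higher at an unadjusted p under 0.05. Tnfsf13 (APRIL), a plasma cell survival factor, fell from 219 ± 121 to 43.8 ± 8.13 normalized counts (SD, n = 3; log2 fold change -2.31, edgeR adjusted p = 0.00107). Tnfsf12 (TWEAK) had 725 ± 190 and 417 ± 32.0 (SD, n = 3; -0.79, edgeR adjusted p = 0.00784), and its adjusted p was 0.0289 and 0.0341 without sham replicates 2 and 3 and 0.0294, 0.0297 and 0.0242 without EV replicates 1, 2 and 3. These genes are adjacent and share 58.4% and 47.4% of their 31-base words with the read-through gene Tnfsfm13, so the split of reads among them is uncertain. Without sham replicate 1, 1 other ligand was called higher. With the members included, 2 of 8 ligands tested were higher and 2 lower, and 6 of 22 receptors were higher and 5 lower. Over all genes tested, 12.1% were higher and 11.6% lower.

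**Figure D5:**
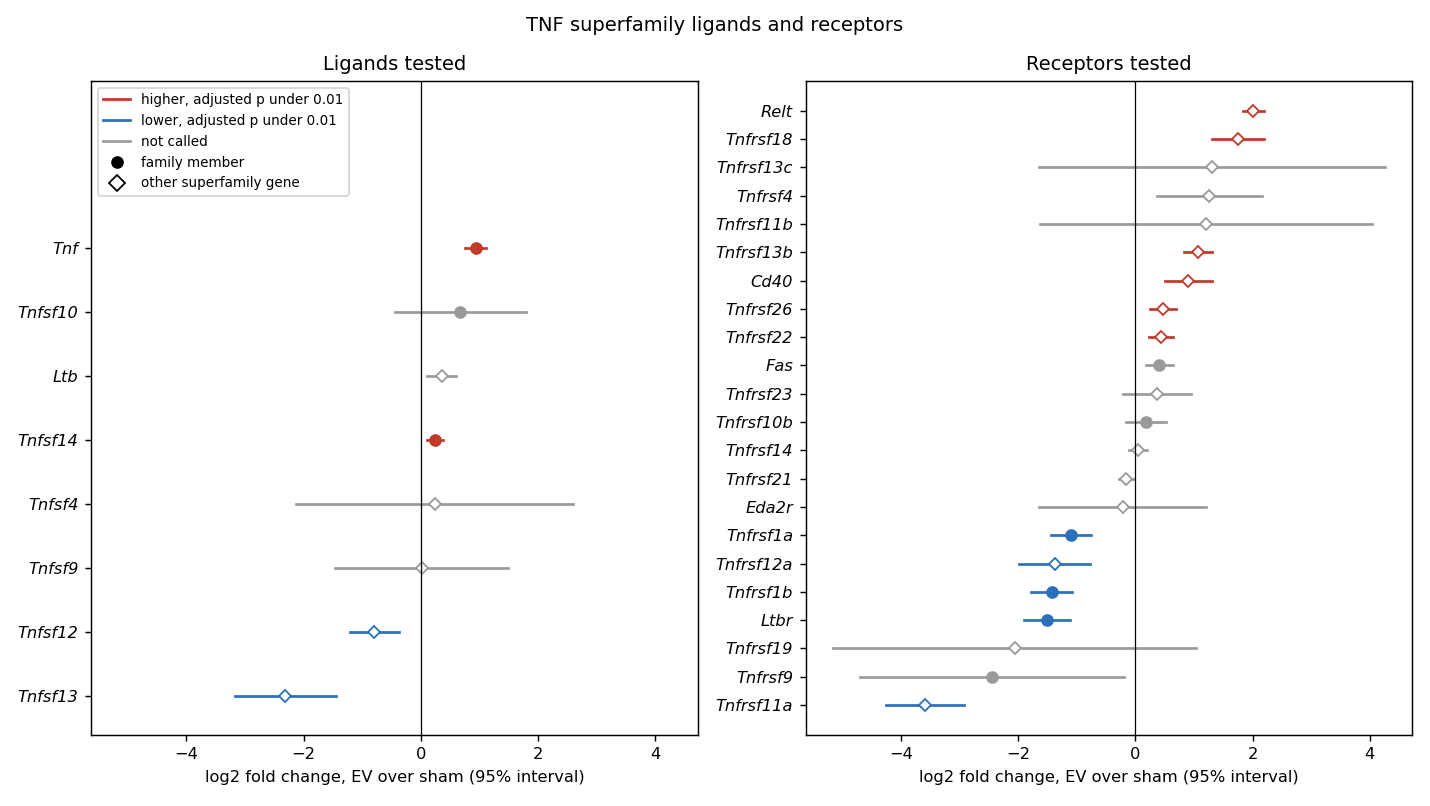
Log2 fold change, EV over sham, with its 95% interval (x axis) for the 8 ligands and 22 receptors tested (rows), with filled circles for family members and open diamonds for other superfamily genes, red for higher and blue for lower at an adjusted p under 0.01 and grey for not called. Receptors run from Tnfrsf11a at -3.59 to Relt at 2.01, and Tnf has the highest value among the ligands called, at 0.93.

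Downstream of the receptors, 26 genes for adaptors and ubiquitin machinery were tested, with 7 higher and 2 lower and a median log2 fold change of 0.16. These shares, 26.9% and 7.69%, stand beside 12.1% and 11.6% of all genes tested. Traf3 and Traf5, receptor adaptors, went from 2393 to 3762 and from 431 to 719 normalized counts (log2 fold changes 0.65 and 0.74, edgeR adjusted p = 0.000132 and 0.000913). Map3k14, the NIK kinase of the non-canonical pathway, which TRAF3 holds in check, went from 826 to 1572 (0.92, edgeR adjusted p = 0.000492). Tnip2, which encodes an A20-binding inhibitor of NF-kB, went from 455 to 176 (-1.36, edgeR adjusted p = 0.00032). These 4 calls held with any 1 library left out. Tab3, an adaptor of the TAK1 kinase, had 0.44 (edgeR adjusted p = 0.00353), with 0.0108 without sham replicate 2 and 0.0188, 0.0214 and 0.0117 without EV replicates 1, 2 and 3. Ikbkg, the IKK scaffold NEMO and the other gene called lower, was named after its value was seen (-0.33, edgeR adjusted p = 0.00725), and with any 1 library left out the list had 1 gene lower. With total counts as scaling the list had 4 higher and 5 lower.

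In the death arm, 3 of 17 genes tested were higher and 0 lower in edgeR, with 1 lower at an unadjusted p under 0.05 and a median of 0.11. The 17.6% higher was near the 12.1% of all genes tested, of which 11.6% were lower. The higher genes included Bid, which links death receptors to mitochondria (845 to 1372 normalized counts; log2 fold change 0.70, edgeR adjusted p = 0.00025), and Xiap, a caspase inhibitor (2887 to 3781; 0.39, edgeR adjusted p = 0.0018). The adjusted p of Xiap was 0.0105 without EV replicate 1. DESeq2 called 1 gene of the list lower, limma 0, and scaling by total counts 2.

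Of 26 TNF-inducible NF-kB target genes tested, 9 were higher and 5 lower, with a median of 0.08. These shares, 34.6% and 19.2%, stand beside 12.1% and 11.6% of all genes tested. Il6, a pleiotropic cytokine, rose from 74.3 to 629 normalized counts (log2 fold change 3.07, edgeR adjusted p = 1.6e-06). Ier3, a stress-response gene, rose from 642 to 3106 (2.27, edgeR adjusted p = 4.85e-08), and Ptgs2, the inducible cyclooxygenase, from 323 to 1536 (2.25, edgeR adjusted p = 4.31e-06). Bcl3, an atypical IkB protein, rose from 304 to 606 (1.00, edgeR adjusted p = 0.000106). The list did not move as a unit. The 5 lower genes, named after their values were seen, were Gadd45b (-0.87), Tnfaip2 (-0.70), Rel (-0.49), Cxcl2 (-0.37) and Nfkbia (-0.32), the last being the classical feedback inhibitor of the pathway. Without EV replicate 1, 2 or 3, the list had 3 genes lower. Ccl2, a monocyte chemokine, went from 72.3 to 280 normalized counts (1.97, edgeR adjusted p = 0.00726), with 0.0131 and 0.0345 without sham replicates 1 and 3 and 0.0279 and 0.0353 without EV replicates 2 and 3.

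Among 13 genes for shedding of TNF protein and control of its mRNA, 2 were higher and 0 lower in edgeR, with 2 lower at an unadjusted p under 0.05, 0 in DESeq2 and limma, and a median of 0.07. The 15.4% higher was near the 12.1% of all genes tested, of which 11.6% were lower. Rhbdf2, the iRhom2 partner needed to mature ADAM17 in myeloid cells, rose from 3155 to 5221 normalized counts (log2 fold change 0.73, edgeR adjusted p = 1.08e-05). Zfp36, whose product tristetraprolin speeds the decay of Tnf mRNA, rose from 11633 to 19015 (0.71, edgeR adjusted p = 1.17e-05). Genes with opposite known roles toward TNF output were thus both higher. Without EV replicate 1, 2 genes of the list were called lower. Of the 3 genes tested that process or hold BAFF and APRIL, Furin, their activating protease, rose from 15104 to 33537 (1.15, edgeR adjusted p = 3.69e-07), and Sdc1, the heparan sulfate proteoglycan that binds APRIL, fell from 1222 to 200.1 (-2.61, edgeR adjusted p = 7.64e-07).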

How the data were processed

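RNA-seq was analysed for 3 sham-treated and 3 EV-treated cultures, grouped by the treatment label. Per the labels and the study's methods, the authors used FastQC, cutadapt, Salmon and DESeq2 with mm10, and versions, annotation and strandedness are not given in the sources used here. The authors deposited estimated counts, rounded here to whole numbers, and normalized counts, a deposited signal used only in 1 alternative. A deposited table of the authors' comparison (log2 fold changes and p-values) was not used.

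Counts were tested with edgeR 4.0.16 (R 4.3.3; TMM scaling, filterByExpr at a minimum count of 10, quasi-likelihood test, Benjamini-Hochberg over 13498 genes), and a gene was called at an adjusted p under 0.01. The procedure was tested on simulated data. SE is the log2 fold change over the square root of F. Positions and lengths came from GENCODE M21. Named genes were all members, every called superfamily gene, and in each other pathway list the 5 called genes with the largest change and a mean over 100, of which a few are not reported here. The members and lists were chosen with earlier results of these data known. Alternatives were RLE or total-count scaling, no filter, DESeq2 1.42.0, limma 3.58.1 on deposited normalized counts (log2, 1 added), a replicate block, other thresholds and each library left out.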

Additional observations from a re-analysis of the deposited data

How the results depend on the processing

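The count of members called lower was 3 under all 14 alternatives, and no member reversed its direction. The count of members called higher, 2 as reported, was 1 with RLE size factors, total counts, limma or the replicate block, 0 with changes of at least 1 on the log2 scale required, and 1 with each library left out. The size requirement also removed Tnf, at 0.93. In the others Tnfsf14 was the one lost, with log2 fold changes of 0.25 (RLE, adjusted p = 0.0102), 0.10 (total counts, adjusted p = 0.233), 0.24 (limma, adjusted p = 0.0108) and 0.24 (replicate block, adjusted p = 0.0179), and of 0.22 to 0.27 with 1 library left out. Fas passed with 0.41 in DESeq2 and with 0.41 at a threshold of 0.05. The other superfamily and pathway lists had 5, 16, 26, 17, 26, 13 and 3 genes tested. Over these lists together, 28 genes were higher and 12 lower, beside 12.1% and 11.6% of all genes tested. Requiring that size left 8 and 5, total counts gave 20 higher and 19 lower, and leaving out 1 library gave 21 to 29 higher and 7 to 10 lower. Total-count scaling moved the median of all genes by -0.15 (log2), so that 1036 were higher and 2342 lower in place of 1632 and 1572. The same size requirement left 419 higher and 857 lower over all genes, and 1 library left out gave as few as 1070 higher and 1055 lower. The cause of these changes was not tested. The labels number the cultures of both groups alike. Deviations of same-numbered cultures correlated at 0.106, 0.0831 and 0.0417, and those of differently numbered cultures at -0.104 to 0.0349. Each sham culture correlated best with its own number. These weak values do not settle whether the cultures were paired, and the main fit did not pair them. The replicate block gave 1794 higher and 1781 lower over all genes. Tnfsf10, Tnfrsf9 and Tnfsf13b had few counts in every library, so their values are the least precise.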
